A study of Mus musculus with 7 samples.

Results

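The genes described here are 10 of the 21965 genes of the count table: the cytokines Tnf, Il6, Lif and Il10, the receptors Tnfrsf1a, Tnfrsf1b, Il6ra, Il6st and Osmr, and the feedback inhibitor Socs3. They were chosen by name, as TNF, the IL-6/gp130 family and IL-10 with receptors and feedback, and each was matched to 1 row through its Ensembl identifier. RNA came from a 5 mm block of spinal cord around the epicenter of a moderate contusion (50 kdyn) at the T9 level, taken on day 3 post injury (dpi 3) from young adult mice. The groups were 3 Bmal1-/- mice (B6.129-Arntltm1Bra/J on C57BL/6, 2 females and 1 male) and 4 C57BL/6 WT mice (2 of each sex; the J substrain for both groups, by the study's methods), with 1 library per mouse. Both groups were contused, so the comparison is between genotypes after injury, with no uninjured level.

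The mutant lacks Bmal1, the clock transcription factor encoded by Arntl, in the germ line and hence in all cells, including blood-borne ones. Mutants, being infertile, came from carrier matings, whereas WT mice were mostly purchased, with 1 littermate among the 4, so genotype and origin cannot be fully told apart. The Arntl count went against the label: the 3 libraries labelled Bmal1-/- had 22.5 to 24.2 CPM (counts scaled to library size), above the 11.9 to 15.3 CPM of WT. That count pools every exon of the gene and does not show the deleted part. Dbp and Nr1d1, clock genes that BMAL1 is known to activate, were lower in every library labelled Bmal1-/-, at 7.80 to 8.83 CPM against 25.3 to 39.3 CPM for Dbp and 5.31 to 7.28 CPM against 29.2 to 36.8 CPM for Nr1d1. The directions given here follow the labels. CPM also include throughout TMM, edgeR's correction for composition, and library totals ran from 38529644 to 44096737 counts.

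TNF is an early alarm cytokine that macrophages and microglia release after injury to the central nervous system. It binds TNFR1 (Tnfrsf1a), which carries a death domain and is found on most cells, and TNFR2 (Tnfrsf1b), which lacks one and is prominent on immune and endothelial cells. Both lead to NF-kB. IL-6, LIF and oncostatin M share the signalling chain gp130 (Il6st), pairing it with Il6ra, Lifr or Osmr, and signal through JAK kinases to STAT3. STAT3 turns on Socs3, which binds gp130 and JAK and shuts the signal down. In the contused cord this axis is known for driving astrocyte reactivity, while IL-10, which signals through STAT3 in macrophages, restrains inflammation.

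Promoters of 3 of the genes are shown because each holds a short sequence tied to a regulator named above: a kappaB match (GGGANTTNC) for Il6, a STAT match (TTCNNNGAA) for Socs3 and an E-box (CACGTG), the sequence bound by BMAL1 with CLOCK, for Il6ra. They are RefSeq sequences on GRCm38.p6, 5′ to 3′ on the gene's strand, from 250 bases before to 50 bases after the start, with the match in capitals. Il6 lies on the plus strand (chr5:30012864-30013163), Socs3 on the minus strand (chr11:117969317-117969616) and Il6ra on the minus strand (chr3:89913147-89913446).
Il6: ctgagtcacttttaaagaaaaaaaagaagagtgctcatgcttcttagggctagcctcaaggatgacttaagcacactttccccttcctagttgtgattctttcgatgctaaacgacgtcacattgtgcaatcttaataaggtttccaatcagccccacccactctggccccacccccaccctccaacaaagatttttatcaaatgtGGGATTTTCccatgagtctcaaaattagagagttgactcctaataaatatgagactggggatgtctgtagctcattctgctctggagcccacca
Socs3: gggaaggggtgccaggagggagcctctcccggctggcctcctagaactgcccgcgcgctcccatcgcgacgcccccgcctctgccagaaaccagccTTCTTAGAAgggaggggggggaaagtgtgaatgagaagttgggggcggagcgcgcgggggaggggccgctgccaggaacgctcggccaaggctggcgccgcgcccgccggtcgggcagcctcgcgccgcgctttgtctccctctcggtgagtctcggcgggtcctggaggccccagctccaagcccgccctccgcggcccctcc
Il6ra: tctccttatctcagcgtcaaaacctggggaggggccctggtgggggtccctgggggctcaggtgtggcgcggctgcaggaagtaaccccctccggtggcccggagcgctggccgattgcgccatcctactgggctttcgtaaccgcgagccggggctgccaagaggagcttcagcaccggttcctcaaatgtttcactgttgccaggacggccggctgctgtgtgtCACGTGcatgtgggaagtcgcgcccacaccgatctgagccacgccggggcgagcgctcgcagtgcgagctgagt
The Il6 match began 44 bases before the start, the Socs3 match 154 bases before it and the Il6ra match 24 bases before it. Both strands were searched in the 9 promoters matched, and the 3 motifs do not overlap there. The STAT letters were also found in Tnfrsf1a (244 bases before the start) and Tnfrsf1b (181 bases before it), and the kappaB letters on the opposite strand of Osmr (30 bases before it). Among 32851 mouse promoters of this length, 8.30% held the STAT letters, 7.15% the E-box and 4.26% the kappaB letters. Tnf, Il6st and Lif had none of these letters in the window. A match is a description of the sequence and not evidence of binding in these cords.

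Receptors and the feedback gene were abundant and the ligands scarce. Per kilobase of exon, Tnfrsf1a stood first, with a median over the 7 libraries of 48.1 CPM per kb, followed by Il6st at 29.6, Socs3 at 20.1 and Tnfrsf1b at 16.6. Osmr (5.70 CPM per kb) and Il6ra (3.26) came next, above Lif (2.602), Tnf (0.868), Il6 (0.125) and Il10 (0.0582). The spreads over libraries overlapped between Il6st and Socs3, Socs3 and Tnfrsf1b, Lif and Tnf, and Il6 and Il10, whereas each of the other neighbours in this order was apart in every library. Per kilobase, Osmr thus exceeded Il6ra and Lif exceeded Il6 in every library.

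No gene of the 9 tested passed the genotype test. With edgeR's quasi-likelihood test and Benjamini-Hochberg adjustment over 15743 genes, 0 of 9 had an adjusted p under 0.05, against 1.57% of all genes, and DESeq2 and limma-voom also called 0. At an unadjusted p under 0.05 there was 1 (Lif), against 20.9% of all genes. The libraries of the genotypes overlapped for all 9, while 26.9% of all genes had groups that do not overlap. The fitted difference was below 0 for 8 of the 9, beside 51.1% of all genes, and above 0 for Lif. Osmr, among the 8, was at -0.0001. Without WT replicate 3, described below, Tnf and Osmr were above 0 as well. The median over the 9 was -0.23 on the log2 scale in the full fit, beside -0.01 over all genes. The intervals below state how large a difference these 7 libraries leave possible.

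**Figure D1:**
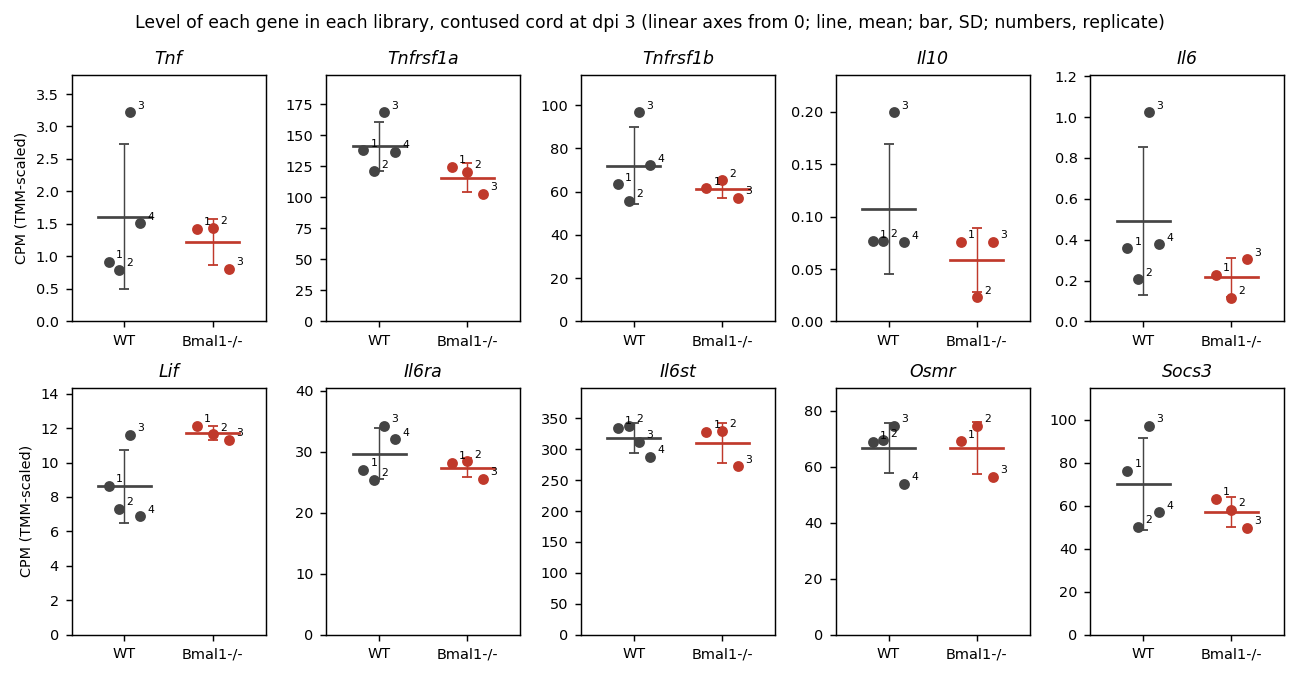
Level of each of the 10 genes in each library, in TMM-scaled CPM on linear axes that start at 0 and differ between panels. Points are mice with their replicate number, lines are means and bars are SDs; the 2 genotypes overlap in every panel, and WT replicate 3 is the highest point for Tnf, Tnfrsf1a, Tnfrsf1b, Il10, Il6, Il6ra and Socs3.

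Before the genes are taken in turn, 1 WT library has to be named. WT replicate 3, from a male, was the highest of the 7 libraries for 6 of the 9 tested genes (66.7%, against 33.9% of all genes) and for Il10. Its summed macrophage markers were 13170 CPM, 1.90 times the mean of the other WT libraries, with 14 of 15 markers highest there, and its neutrophil markers were 1.66 times and its EC markers 1.49 times that mean. Its oligodendrocyte markers were 1.28 times that mean, with 2 of 9 genes highest there. Its astrocyte markers were 0.759 times and its neuron markers 0.464 times that mean. Fold changes of the 9 genes are therefore also given without this library. In tissue RNA, fewer cells of a type and less RNA per cell cannot be told apart.

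Tnf, the ligand of both TNF receptors, was at 1.42, 1.44 and 0.812 CPM in Bmal1-/- replicates 1, 2 and 3 and at 0.918, 0.797, 3.22 and 1.51 CPM in WT replicates 1 to 4. WT replicate 3 was more than any other library, and the other WT libraries lay among the Bmal1-/- ones or close to them. The log2 fold change was -0.40 ± 0.51 (SE) with a 95% interval from -1.60 to 0.81 (edgeR, adjusted p = 0.643). Without WT replicate 3 it turned to 0.19 (edgeR, adjusted p = 0.765). The sign of the Tnf difference thus depended on 1 library.

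Tnfrsf1a, the death domain receptor and the most abundant of the genes per kilobase, was at 125, 121 and 103 CPM in Bmal1-/- and at 138, 121, 169 and 137 CPM in WT. Every WT library was at or above the middle Bmal1-/- library, and WT replicate 2 fell between the Bmal1-/- values. Its log2 fold change was -0.28 ± 0.12 with an interval from -0.57 to 0.01 (edgeR, adjusted p = 0.247), and -0.19 without WT replicate 3 (adjusted p = 0.257). Among the genes with negative differences this one had the smallest unadjusted p, 0.0548 by edgeR.

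Tnfrsf1b, the receptor of immune and endothelial cells, was at 61.6, 65.2 and 57.1 CPM in Bmal1-/- and at 63.4, 55.7, 96.7 and 72.2 CPM in WT. The 2 female WT libraries lay on either side of the Bmal1-/- mean of 61.3 ± 4.06 (SD, n = 3), and the 2 male ones were above all Bmal1-/- libraries. The log2 fold change was -0.23 ± 0.18, with an interval from -0.65 to 0.19 (edgeR, adjusted p = 0.438), and moved to -0.06 without WT replicate 3. The balance of the receptors, as the log2 ratio of Tnfrsf1b to Tnfrsf1a within each library, was -0.92 ± 0.09 (SD, n = 3) in Bmal1-/- and -0.99 ± 0.16 (SD, n = 4) in WT (exact two-sided permutation p = 0.457; adjusted over 6 ratios, 0.686).

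Il6, which signals through Il6ra and gp130, was rare, with 5 to 12 counts per Bmal1-/- library and 8 to 41 per WT library. It was at 0.229, 0.116 and 0.305 CPM in Bmal1-/- and at 0.357, 0.206, 1.02 and 0.378 CPM in WT. WT replicates 1, 3 and 4 exceeded all Bmal1-/- ones, WT replicate 2 lay among them, and WT replicate 3 was far above the rest. The log2 fold change of -1.18 was the widest from 0 among the 9 genes, but so was its error (SE 0.62, interval -2.63 to 0.26; edgeR, adjusted p = 0.300). It shrank to -0.54 without WT replicate 3 (edgeR, adjusted p = 0.486). At these counts a difference in Il6 could not be resolved.

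Lif, a cytokine that pairs Lifr with gp130, was the one gene with a positive difference. It was at 12.2, 11.7 and 11.3 CPM in Bmal1-/- and at 8.65, 7.33, 11.6 and 6.88 CPM in WT. The Bmal1-/- libraries lay close together, and 3 of 4 WT libraries were below all of them, with WT replicate 3 inside their range. The log2 fold change was 0.44 ± 0.18 with an interval from 0.02 to 0.87 (edgeR, unadjusted p = 0.0438, adjusted p = 0.230). Without WT replicate 3 it was 0.62 (edgeR, adjusted p = 0.0278), and Lif was then the only gene of the 9 called, beside 4.66% of all genes in that fit. DESeq2 on all 7 libraries gave 0.45 (adjusted p = 0.156).

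Il6 and Lif share gp130, and their fitted differences had opposite signs. The log2 ratio of Il6 to Lif was -5.45, -6.14 and -5.00 in Bmal1-/- and -4.42, -4.85, -3.44 and -4.02 in WT. All 4 WT libraries had the higher ratio. The difference of -1.35 had an exact two-sided permutation p of 0.0571, the smallest that 3 against 4 libraries allow, and 0.343 after adjustment over the 6 ratios. It ran from -1.61 to -1.05 when each library was left out in turn, and was -1.10 without WT replicate 3. The Tnf to Il10 ratio differed by 0.30 (exact two-sided permutation p = 0.686), and none of the 5 ratios other than Il6 to Lif had genotypes that do not overlap.

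**Figure D2:**
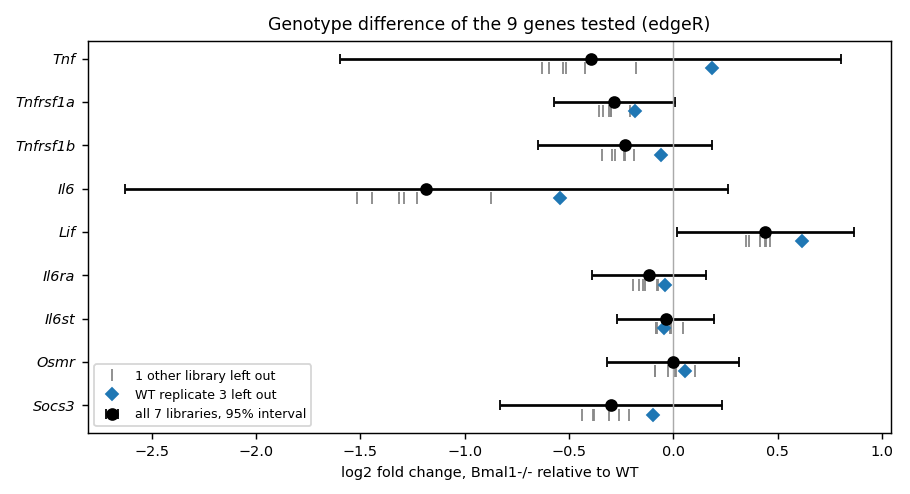
Difference between genotypes for the 9 genes tested, as log2 fold change (Bmal1-/- relative to WT) from edgeR. Black points and bars are the estimate from 7 libraries with its 95% interval, grey ticks leave out 1 other library and blue diamonds leave out WT replicate 3; of the black bars only that of Lif, from 0.02 to 0.87, is clear of 0, and the Tnf diamond at 0.19 lies on the other side of 0 from its point at -0.40.

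The gp130 receptor chains differed little. Il6st, the shared chain, was at 328, 329 and 272 CPM in Bmal1-/- and at 334, 338, 312 and 287 CPM in WT, with the male Bmal1-/- library lowest. Its log2 fold change was -0.04 ± 0.10, with an interval from -0.27 to 0.20 (edgeR, adjusted p = 0.836), and -0.05 without WT replicate 3. Osmr, the oncostatin M receptor, was at 69.0, 74.7 and 56.3 CPM in Bmal1-/- and at 68.7, 69.5, 74.7 and 53.9 CPM in WT. The genotypes covered nearly the same range, and the interval of the Osmr difference ran from -0.32 to 0.32 (edgeR, adjusted p = 0.999). Without WT replicate 3 the Osmr estimate was 0.06.

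Il6ra, the IL-6-binding chain, was at 28.2, 28.4 and 25.5 CPM in Bmal1-/- and at 27.0, 25.4, 34.3 and 32.0 CPM in WT. The male WT libraries were above all others, and the female WT libraries lay within or just under the Bmal1-/- range. Between genotypes, Il6ra differed by a log2 fold change of -0.12 ± 0.12, with an interval from -0.39 to 0.16 (edgeR, adjusted p = 0.542), and by -0.04 without WT replicate 3. Exons of the antisense gene Gm42809 overlap those of Il6ra, and whether the authors counted by strand is not given in the sources used here, so antisense reads may be included. Relative to Il6st, the log2 ratio of Il6ra differed by -0.07 and that of Osmr by 0.04 between genotypes (exact two-sided permutation p = 0.686 for each). The Il6ra to Il6st difference turned to 0.01 without WT replicate 3.

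Socs3, the STAT3-driven inhibitor of gp130, was at 63.4, 58.1 and 49.8 CPM in Bmal1-/- and at 76.3, 50.1, 97.3 and 56.9 CPM in WT. Of the WT libraries, 2 were above the Bmal1-/- range and 2 within it. For Socs3 the log2 fold change was -0.30 ± 0.23, with an interval from -0.83 to 0.23 (edgeR, adjusted p = 0.434), and -0.10 without WT replicate 3. The SD among WT mice was 21.2 CPM (n = 4) and that among Bmal1-/- mice 6.85 CPM (n = 3). The log2 ratio of Socs3 to Il6st was -2.37, -2.50 and -2.45 in Bmal1-/- and -2.13, -2.75, -1.68 and -2.33 in WT (exact two-sided permutation p = 0.514).

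Il10, the anti-inflammatory cytokine, was too rare to test across genes. It had 1 to 3 counts per Bmal1-/- library and 3 to 8 per WT library, which is 0.0763, 0.0232 and 0.0761 CPM against 0.0765, 0.0771, 0.200 and 0.0757 CPM. All but WT replicate 3 were at or under 3 counts, so no fold is given. Mean log2 CPM was -3.25 in Bmal1-/- and -2.74 in WT (exact two-sided permutation p = 0.229). A difference in Il10 was not detectable at this depth.

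Sex was looked at after the values had been seen, because both male WT libraries were high for several receptors. In a fit with separate genotype effects by sex, the Tnf log2 fold change was 0.74 in females and -1.54 in males, that of Tnfrsf1b 0.09 and -0.56, and that of Il6ra 0.11 and -0.38. Unadjusted p values for these sex differences were 0.0149, 0.0399 and 0.0127, but each adjusted p was 0.400 by edgeR's test of the interaction. No gene of the 15743 passed that test at an adjusted p under 0.05, and 1934 had an unadjusted p under 0.05. Only 1 Bmal1-/- mouse was male, so the male values rest on that library. They also rest on WT replicate 3, at 3.22 CPM for Tnf against 1.51 CPM in WT replicate 4, the other male WT library. The fit by sex was not run without WT replicate 3.

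The patterns over the 7 libraries were compared with 14357 other genes by the root mean square (RMS) difference of centred log2 CPM. Tnfrsf1b came closest to Syk (RMS 0.025), a kinase of immune receptors, and Stxbp2, and Tnfrsf1a to Nelfe (0.0204) and Map2k3. Socs3 was nearest to Folr2 (0.091), a folate receptor of resident macrophages, and Il3ra, and Lif to S100a3 (0.0483) and Cdkn1a, a cell cycle inhibitor. Tnf was nearest to H2-Aa (0.23), an MHC class II chain, and Srarp, although this distance was large beside the RMS of Tnf itself, 0.634. Il6st was nearest to Mmp28 (0.0356) and Agtrap, and Osmr to Bag3 (0.049) and Yap1. The RMS of the gene itself was 0.112 for Il6st, 0.175 for Osmr and 0.323 for Socs3, so their distances were not small beside it either. These are descriptions over 7 libraries.

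The other genes of the 2 pathways were read from 8 lists holding 130 genes, of which 114 were tested and 2 (1.75%) were called, a share near the 1.57% of all genes. Other gp130 ligands and receptors had 0 of 11 called, with 8 below 0 and a median of -0.11. Il11, a gp130 cytokine, had the smallest p there: 0.7371, 0.9748 and 1.193 CPM in Bmal1-/- against 1.25, 1.72, 3.57 and 2.17 CPM in WT. Its genotypes did not overlap, but at a log2 fold change of -1.17 ± 0.38 the adjusted p was 0.171 by edgeR, and the fold was -0.82 without WT replicate 3. Its receptor Il11ra1 followed with -0.18 (adjusted p = 0.291).

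The gp130 signal chain of JAKs, STATs and their modulators had 0 of 13 called and a median of -0.04. The smallest p values belonged to Pias3, an inhibitor of STAT3, at -0.19 (edgeR, adjusted p = 0.182), and Stat5a at -0.32 (adjusted p = 0.245), which was -0.20 without WT replicate 3. Downstream, 0 of 19 STAT3-responsive genes were called, although 16 were below 0, beside 51.1% of all genes, and the median was -0.44. Serpina3n, a protease inhibitor of reactive astrocytes named after its values were seen, had a positive difference, at 2008 to 2650 CPM in Bmal1-/- and 1456 to 1829 CPM in WT (log2 fold change 0.49 ± 0.14; edgeR, adjusted p = 0.136). The smallest p values of the list were those of Lrg1, a secreted glycoprotein of the acute phase, and Timp1, an inhibitor of matrix metalloproteinases.

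Lrg1 was at 11.1, 10.2 and 10.8 CPM in Bmal1-/- and at 20.9, 17.8, 45.2 and 22.9 CPM in WT, and Timp1 at 75.0, 84.9 and 53.1 CPM against 106, 119, 174 and 112 CPM. Both were apart between genotypes in all libraries, with WT replicate 3 highest. The log2 fold changes were -1.32 ± 0.32 for Lrg1 (edgeR, adjusted p = 0.0990) and -0.85 ± 0.22 for Timp1 (adjusted p = 0.116). Without WT replicate 3 the list median moved to -0.23, while Lrg1, at -0.94, passed the threshold (edgeR, adjusted p = 0.00671). Of the 19 genes, 15 were highest in that library, and the share it has in these differences was not tested beyond leaving it out.

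On the TNF side, 0 of 20 genes of the signal chain and 0 of 17 NF-kB-responsive genes were called, with medians of -0.06 and -0.01. Birc2, an inhibitor of apoptosis recruited to TNFR1, had 0.18 ± 0.07 (edgeR, adjusted p = 0.211), and Casp8, the initiator caspase of the death branch, -0.49 ± 0.19 (adjusted p = 0.212), or -0.32 without WT replicate 3. Ier3, an immediate early gene, had -0.68 ± 0.22 (edgeR, adjusted p = 0.161), and Traf1, a TNF receptor adaptor, 0.66 ± 0.23 (adjusted p = 0.187). The NF-kB list held 14 genes that were highest in WT replicate 3, and without it the median changed sign, to 0.15. In that fit edgeR called 4 of the 17 genes of the list, beside 4.66% of all genes. Ier3 was lower (-0.44, adjusted p = 0.0242). Traf1 (0.88, adjusted p = 0.0265), Nfkbia (0.37, adjusted p = 0.0336) and Vcam1 (0.36, adjusted p = 0.0129) were higher.

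The called genes were members of the wider TNF families. Tnfrsf9 (4-1BB), a costimulatory receptor of activated lymphocytes, was at 0.458, 0.232 and 0.355 CPM in Bmal1-/- and at 2.40, 1.41, 2.27 and 1.59 CPM in WT. All WT libraries were well above the Bmal1-/- ones, and WT replicate 3 did not stand out. Tnfrsf9 fell by 2.46 on the log2 scale (SE 0.32; edgeR, adjusted p = 0.0155), and its counts ran from 10 to 94. It was the only one of 19 tested receptors called. Leaving out Bmal1-/- replicate 1 or 3, or WT replicate 1, put its adjusted p at 0.0656, 0.0859 and 0.0526 (edgeR), with log2 fold changes of -2.70, -2.48 and -2.34. The span of Tnfrsf9 overlaps that of Camta1 on the opposite strand. The T and NK cell markers, whose sums were 1.37 to 2.16 CPM in Bmal1-/- and 2.13 to 2.67 in WT, overlapped slightly. Of these 8 genes only 2, Lck and Cd4, passed the filter, and Cd3e, Cd3d and Cd3g had at most 5 counts in any library. These markers thus say little about T cells, and their part in the Tnfrsf9 difference was not tested.

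Tnfsf11 (RANKL), the ligand of RANK, rose by 1.83 on the log2 scale (SE 0.29; edgeR, adjusted p = 0.0322), the only one of 10 tested TNF superfamily ligands called. It was at 4.12, 4.62 and 2.31 CPM in Bmal1-/- and at 1.40, 0.848, 0.924 and 0.958 CPM in WT. All Bmal1-/- libraries were above all WT ones, the female pair most. The call was lost, with adjusted p from 0.0563 to 0.149 by edgeR, when Bmal1-/- replicate 1 or 2 or WT replicate 1, 2 or 4 was left out, while the log2 fold change stayed between 1.64 and 2.01. Its receptor Tnfrsf11a (-0.19, adjusted p = 0.419) and its decoy receptor Tnfrsf11b (-1.13, adjusted p = 0.148), named after their values were seen, did not pass. Summed neuron markers, at 5822 to 6958 CPM in Bmal1-/- and 2387 to 5773 in WT, were also higher in all Bmal1-/- libraries. So were summed astrocyte markers, at 16410 to 18890 CPM and 11080 to 15620 CPM, of which Gfap made up most. By gene, 10 of 10 neuron markers were above 0, but 0 were called. Groups did not overlap for 4 of these 10, against 26.9% of all genes. Of the astrocyte markers, 6 were above 0 and 4 below. Aldh1l1 was lower in every Bmal1-/- library, at 117 to 139 CPM against 143 to 209 CPM. The part of these cells in the Tnfsf11 difference was not tested.

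Of the IL-10 receptors and related anti-inflammatory cytokines, 6 of 12 were tested and 0 called, with a median of -0.19. Il13ra1, a receptor chain for IL-13 and IL-4, had -0.33 ± 0.11 (edgeR, adjusted p = 0.187), and Il10rb, the shared chain of the IL-10 receptor family, -0.42 ± 0.20 (adjusted p = 0.272). Without WT replicate 3 the median was -0.09 and Il10rb was at -0.21. Il10ra, the chain specific to IL-10 and also named after its values were seen, was at 24.8 to 30.7 CPM in Bmal1-/- and 22.5 to 33.2 CPM in WT. Besides Tnfrsf9, the spans of Pias3, Stat5a and Timp1 overlap a gene on the opposite strand, those of Casp8 and Il10rb a gene on the same strand and that of Il11ra1 genes on both, so their counts are less certain.

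**Figure D3:**
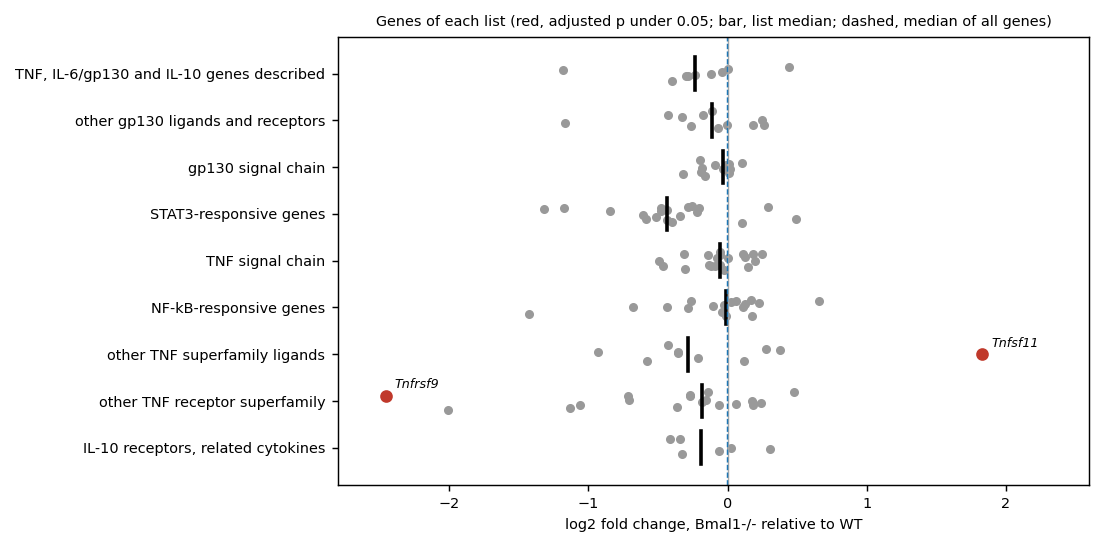
Log2 fold change (Bmal1-/- relative to WT) of each tested gene of the 10 described and of 8 pathway lists, by list, with vertical position inside a list random. Red points are genes with an adjusted p under 0.05, black bars are list medians and the dashed line is the median of all genes; the red points are Tnfrsf9 at -2.46 and Tnfsf11 at 1.83, and the STAT3-responsive list has the lowest median, -0.44.

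The cellular setting of these values was read from 10 marker lists. Neuron, astrocyte and oligodendrocyte markers of cord tissue were abundant, and no marker gene was at or under 3 counts in every library. Macrophage markers summed to 7136 to 8308 CPM in Bmal1-/- and 5543 to 13170 in WT, most of it Spp1. Microglia markers summed to 1521 to 1741 and 1516 to 1993 CPM, so both sums overlapped between genotypes. By gene, 13 of 15 macrophage markers were below 0, beside 51.1% of all genes, with a median of -0.40. Groups did not overlap for 3 of the 15, against 26.9% of all genes. EC markers were lower in every Bmal1-/- library (679 to 743 CPM) than in any WT library (783 to 1223). Of these 12 genes, 1 (Cdh5) was called lower, beside 1.57% of all genes called in either direction. By gene, 11 were below 0 and 1 above, and groups did not overlap for 7. Skeletal muscle markers, of tissue that lies beside the cord, were at 62.0 to 67.8 CPM against 94.1 to 117.2. Of these, 8 of 10 were called lower, beside the same 1.57% of all genes. Most of the Bmal1-/- sum was Pvalb, which neurons also express and which had a log2 fold change of 0.38, and the other 9 genes summed to 8.29 to 9.75 CPM in Bmal1-/- and 54.4 to 71.3 CPM in WT. Fibroblast and meningeal markers varied more in Bmal1-/- (470 to 2480 CPM) than in WT (1337 to 2127). Bmal1-/- replicate 2 was at 2480 CPM, above every WT library, and replicates 1 and 3 were at 553 and 470 CPM, below every WT library. By gene, 11 of 12 were below 0, beside 51.1% of all genes, with a median of -1.02, and 0 were called. The part of these populations in the levels of the 10 genes was not tested.

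**Figure D4:**
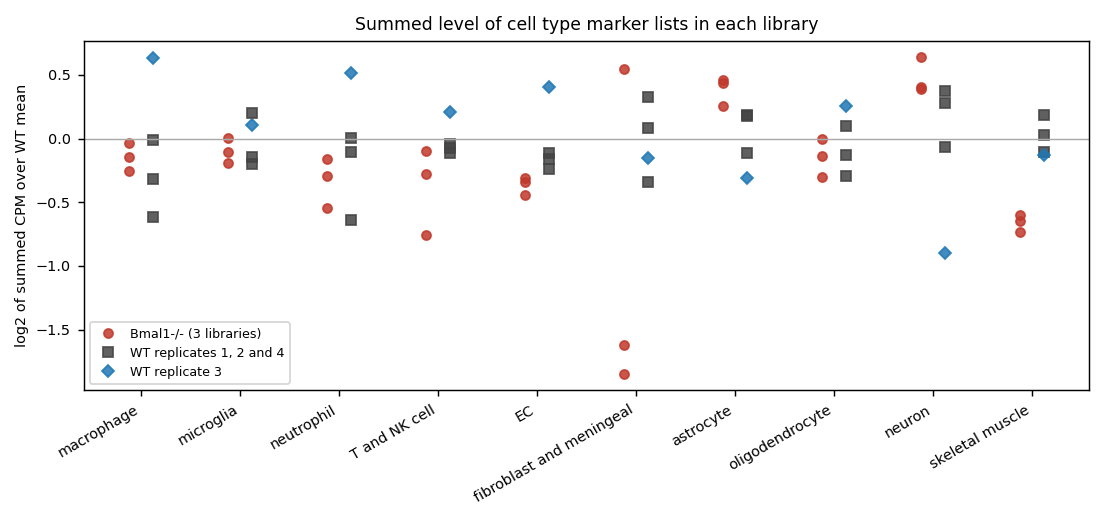
Summed CPM of each of 10 cell type marker lists in each library, as log2 of the ratio to the WT mean. Red circles are Bmal1-/- libraries, grey squares WT replicates 1, 2 and 4 and blue diamonds WT replicate 3. WT replicate 3 is highest for macrophage, neutrophil, T and NK cell, EC and oligodendrocyte markers and lowest for neuron and astrocyte markers.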

How the data were processed

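Poly-A-selected stranded libraries were sequenced on an Illumina NextSeq. The authors used Tophat2 to align reads to GRCm38.p6 and HTSeq 0.10.0 to count them (FastQC 0.10.1 is also in the submitters' notes). The deposited values are raw counts, whole numbers without normalization. Annotation release and strand setting are not given in the sources used here. Of 21965 genes, 3039 had no count in any library.

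Genes were filtered with filterByExpr, which left 15743, and scaled with TMM. Genotype was tested in 1 fit across all of them by the quasi-likelihood method of edgeR 4.0.16 (R 4.3.3, limma 3.58.1). P-values were adjusted by Benjamini-Hochberg, and genes with an adjusted p under 0.05 were called. The common dispersion was 0.0342. Spread between mice, more than depth, limits precision except at low counts. Intervals are 95% intervals of the fit. Ratios and Il10 were compared on log2 CPM (prior count 2) by exact two-sided permutation over 35 splits, where no p is under 0.0571 (scipy 1.17.1). Lengths and positions came from GENCODE M21, which matched 21939 of 21965 identifiers. Likeness of patterns was computed for genes of at least 1 CPM on average. The genes nearest to Il6ra are not reported here. The fit was tested on simulated data. Alternatives were DESeq2 1.42.0, limma-voom, other scalings and filters, sex or replicate number as a term, and leaving out each library.

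The genes and lists were chosen with earlier results of these data known, and lists were written from general knowledge. From each pathway list the called genes are named, or the 2 with the smallest p where none was called. From marker lists, up to 3 called genes could be named, and others are named only to show what a sum holds. No sample was left unassigned.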

Additional observations from a re-analysis of the deposited data

Results flagged for a closer look

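Il10 in WT was flagged for 1 library far from the others: WT replicate 3 was at 0.200 CPM, against 0.0757 to 0.0771 in the other 3. These are 8 counts against 3. The rule was applied to 16 measures in the 4 WT libraries, and chance flags about 1 group in 20.

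The Tnf genotype difference was flagged because it had opposite signs in the sexes. Both female Bmal1-/- libraries (1.42 and 1.44 CPM) were above both female WT libraries (0.918 and 0.797), and the male Bmal1-/- library (0.812) was below both male WT libraries (3.22 and 1.51). The log2 difference, males minus females, was -2.28 (edgeR, unadjusted p = 0.0149, adjusted p = 0.400).

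The Il6ra difference was flagged in the same way. Females had 28.2 and 28.4 CPM in Bmal1-/- and 27.0 and 25.4 in WT, whereas males had 25.5 in Bmal1-/- and 34.3 and 32.0 in WT. The log2 difference, males minus females, was -0.49 (edgeR, unadjusted p = 0.0127, adjusted p = 0.400). Both the Tnf and the Il6ra flag rest on 1 male Bmal1-/- mouse and on male WT libraries that include WT replicate 3.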

How the results depend on the processing

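Over 15 alternatives the 9 genes gave 135 fold changes, of which 125 kept their direction and their side of the threshold. The Tnf value ranged from -0.63 to 0.19 as libraries were left out, and turned sign without WT replicate 3. Il6st ranged from -0.082 to 0.046. Osmr, at 0 within its error, ranged from -0.090 to 0.10 and was 0.0042 by DESeq2, 0.0033 with RLE size factors and 0.0034 with no filter. The number of the 9 called was 0, and 0 to 1 as libraries were left out, the 1 being Lif without WT replicate 3. The Osmr to Il6st ratio ranged from -0.012 to 0.11, Il6ra to Il6st from -0.17 to 0.019, and Tnf to Il10, which rests on very few Il10 counts, from -0.10 to 0.69.

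Over all genes 144 were lower and 103 higher, and DESeq2 gave 922 and 573. Leaving out a library gave 27 to 439 lower and 30 to 291 higher, the most without WT replicate 3. In the pathway lists 1 gene was lower and 1 higher, against 8 and 3 by DESeq2 and 0 to 4 and 0 to 4 as libraries were left out. Without WT replicate 3 these were Lrg1, Ier3, Tnfrsf9 and Tnfrsf10b (lower) and Nfkbia, Traf1, Vcam1 and Tnfsf11 (higher). DESeq2 called Timp1, Lrg1, Steap4, Ier3, Eda2r, Tnfrsf9, Tnfrsf10b and Tnfrsf11b lower and Serpina3n, Tnfsf11 and Relt higher. The gp130 signal chain median ranged from -0.077 to -0.023 as libraries were left out.

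Same-numbered mice were of the same sex, but the numbers do not otherwise pair them: deviations of same-numbered libraries correlated at -0.17, 0.18 and -0.29. With the replicate block, 0 genes were lower and 0 higher over all genes and in the pathway lists, and the gp130 signal chain median was -0.078. That fit adds terms for replicate number, which leaves fewer degrees of freedom for the spread between mice. These terms also hold sex, which cannot be told apart from replicate number there. In that fit WT replicate 4 has no Bmal1-/- library of the same number, so it adds nothing to the genotype contrast. The cause of the lost calls was not tested. Counts of a few per library limit Il10 and Il6.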
